A study of Ananas comosus with 78 samples.

Results

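Aco014671 is annotated by the study as a MADS-box transcription factor of pineapple, and it was taken by its identifier, 1 gene of the 27024 that the count files list. Its counts were followed through all 26 conditions of an experiment on flower induction, in which field-grown "MD1" plants received 10 ml of water (control) or 50 mg of ethephon in 10 ml in the center of the plant. Ethephon is a source of ethylene once inside the plant, and ethylene makes pineapple flower. Samplings of the stem apex were 6 h, then each day up to day 6, then day 8, and the base of the "D" leaf (the most recently matured one) was taken at 6 h and each day up to day 4, with 3 replicates per condition (78 libraries), each a pool of 3 plants of 1 field replication. Both tissues came from the same uprooted plants. The study counts its 6 h to the end of dissection on the day of treatment. By its Methods these plants were harvested in the same morning as the injection, so they were uprooted well before 6 h. Samplings are numbered in the labels from 1 to 8 and from 1 to 5 as days after treatment, and the times used here were matched to these numbers in order, from the samplings that the study's Results name. The Methods of the study also name day 5 for the leaf, so the times of the leaf base are less sure than those of the apex. All plants were of 1 cultivar in 1 plot, and the apex samples held the trimmed tip of the stem, not the meristem alone. By the study's Methods, leaf primordia were still on these tips, and leaf bases were sampled for comparison for that reason. In such bulk tissue, fewer cells that express a gene and less RNA per cell cannot be told apart.

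MADS-box proteins are transcription factors that bind DNA through a conserved domain, usually as dimers or larger complexes. In Arabidopsis and rice, members of the family repress or promote the change from vegetative to floral growth and then set the identity of the floral organs. SVP-type proteins are known mainly as repressors of flowering in Arabidopsis, while SOC1, APETALA1/FRUITFULL and SEPALLATA proteins act in floral induction and in the floral meristem. The sources used here place Aco014671 in none of these subfamilies.

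Aco014671 lies on linkage group 20 at 9897052 to 9905261 on the plus strand (coordinates of the deposited annotation of Acomosus_321_v3) and has 7 exons with 827 bases. Both of its neighbours lie on the opposite strand and share exon bases with it. Aco014670 (9901465 to 9909638, 8 exons, 1219 bases) covers all 62 bases of exon 3 and 43 of the 100 bases of exon 4. Aco014672 (9896757 to 9899739, 3 exons, 384 bases) covers 166 of the 192 bases of exon 1. Together, 271 of the 827 exon bases (32.8%) are shared with exons of a neighbour, and 556 overlap no exon of either. All 7 exons of Aco014671 lie within the span of a neighbour, so these 556 bases fall in introns of the neighbours. The library kit keeps the strand, but read pairs were counted without it, so reads of Aco014671 and of its antisense neighbours cannot be told apart wherever the genes, or transcripts that run past their annotated ends, occupy the same bases. Pairs that touch exons of more than 1 gene are by default assigned to none. Each value below is therefore a count at the exons of Aco014671, and that of Aco014670 is given beside the main results. No sequence of the gene was in the sources used here.

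**Figure D1:**
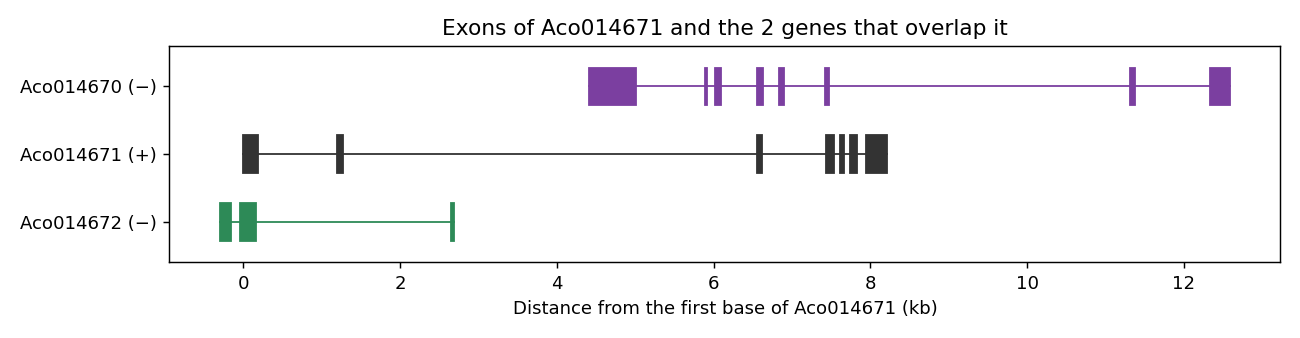
Exons (boxes) and gene spans (lines) of Aco014671 and of both overlapping genes against the distance in kb from the first base of Aco014671, with the strand in parentheses. Exon 1 of Aco014671 lies over Aco014672, and exons 3 and 4 lie over exons of Aco014670.

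The libraries held 1418697 to 13180667 counts in genes (median 5364716). Aco014671 received 3506 counts in all, from 0 to 392 per library, and 52 of the 78 libraries held more than 10. At these counts, a difference in the apex rests on few reads. Levels are given as CPM (CPM being counts in a gene relative to all counts in genes, scaled by TMM factors) and as mean ± SD of 3 libraries. The 5 apex markers fixed for the check of the tissue labels ranged from 0 to 523.3 CPM in the apex libraries and from 0 to 4.00 CPM in the leaf base libraries. Among them, the KNOTTED1-like gene Aco004983, of a family that marks meristems, was at 2.24 to 52.3 CPM in the apex libraries and at no more than 0.886 CPM in those of the leaf base. In each of the 8 apex comparisons of ethephon with water, and in those of leaf base day 3 and day 4, the 2 treatments shared no sequencing lane, so that lane and treatment cannot be told apart within them.

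Leaf bases had more Aco014671 than apices at most samplings, and its level changed from sampling to sampling in both tissues. The highest mean was that of the water-control leaf base at 6 h, 45.9 ± 13.2 CPM, and the lowest was that of the ethephon-treated apex on day 3, 0.350 ± 0.410 CPM. Next to the top stood the leaf base on day 1, with 33.9 ± 8.92 CPM after ethephon and 26.1 ± 11.7 CPM in the control, and the control leaf base on day 4, with 24.8 ± 14.3 CPM. The apex had its highest mean in the control on day 1, 13.7 ± 4.79 CPM. The order of the 26 means is a description. Each condition overlapped in its range of libraries with the next one in the order, and only at the last step, from the ethephon-treated apex on day 4 to that on day 3, was the gap larger than the larger of both SDs.

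**Figure D2:**
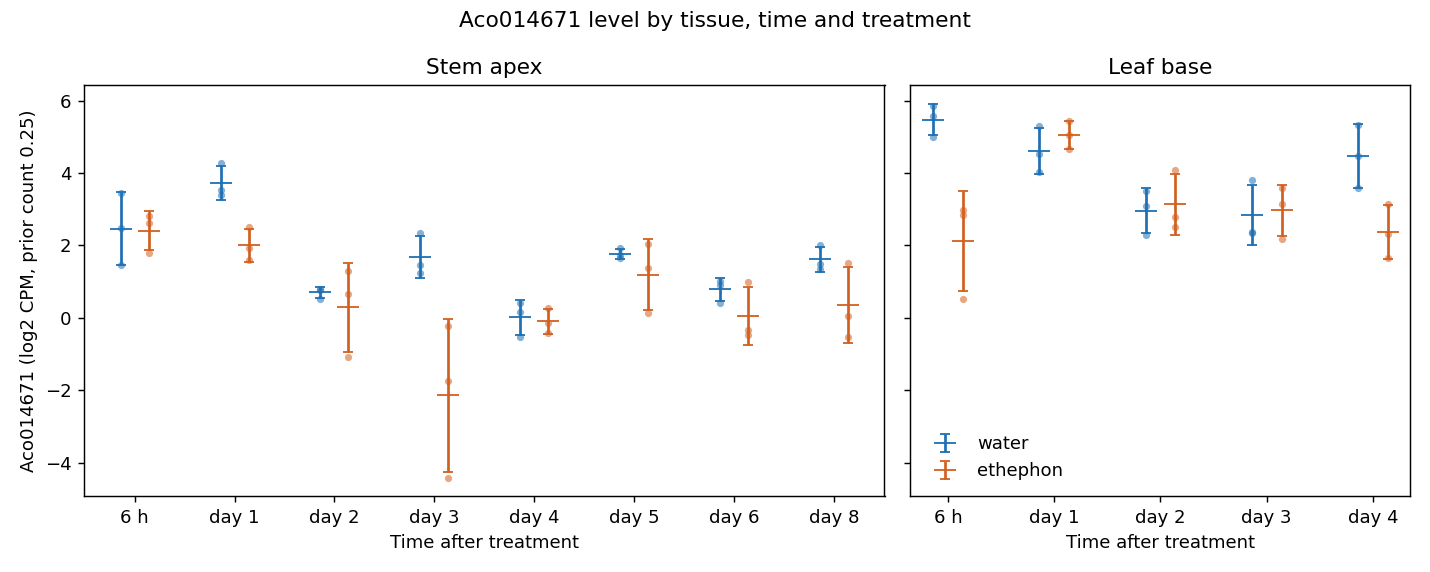
Level of Aco014671 (log2 CPM, prior count 0.25) in the stem apex and the leaf base against time after treatment, with 1 point per library and the mean ± SD of the 3 libraries of each condition. The groups are apart at the apex on days 1 and 3 and in leaf bases at 6 h and on day 4, and the lowest point is the library with a count of 0.

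The level of Aco014671 fell after ethephon in 4 of the 13 comparisons and rose in none, with 2 falls in each tissue and at different samplings. A gene was called up- or down-regulated at an adjusted p under 0.05 and a change of at least 2-fold (edgeR's quasi-likelihood test, Benjamini-Hochberg over all genes with a count). Down-regulated genes made up 3.63% of the genes tested at the apex on day 1, 7.19% at the apex on day 3, 11% for leaf bases at 6 h and 2.23% for leaf bases on day 4.

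At the apex on day 1, the control libraries had 10.5, 11.5 and 19.2 CPM (counts of 37, 33 and 83). The ethephon libraries had 5.61, 3.74 and 2.97 CPM (counts of 33, 17 and 11). Every treated library was below every control. The fall was 1.71 ± 0.32 on the log2 scale (log2 fold change −1.71, SE 0.32, adjusted p = 0.000156, edgeR), a level 3.28 times lower. The range of Aco014670 in these libraries was 200 to 287.7 CPM in the control and 75.6 to 123 CPM after ethephon, with a log2 fold change of −1.37 (SE 0.17).

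At the apex on day 3, the control libraries had 5.00, 2.72 and 2.30 CPM (counts of 30, 17 and 9). The ethephon libraries had 0.249, 0 and 0.801 CPM (counts of 1, 0 and 6). Again the groups did not overlap, but the treated group rested on 7 counts in all. The library with a count of 0 held 3493614 counts in genes (3781368 after TMM scaling), which allows a level of up to 0.793 CPM by counting error alone. The log2 fold change was −2.89 (SE 0.64, adjusted p = 0.00148, edgeR), and −4.49 without treated replicate 3, which held 6 of the 7 counts. Aco014670 stood at 14.8 to 16.8 CPM in the same treated libraries and at 46.1 to 85.5 CPM in the controls, with a log2 fold change of −1.99 (SE 0.21).

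In the leaf base at 6 h, the control libraries had 31.9, 47.7 and 58.1 CPM (counts of 92, 138 and 392), and the ethephon libraries had 1.40, 7.85 and 7.16 CPM (counts of 11, 39 and 46). The lowest control was above the highest treated library by a wide margin, 31.9 against 7.85 CPM. The log2 fold change was −3.12 (SE 0.42, adjusted p = 7.05e-05, edgeR), a level 8.71 times lower in the fit. At this sampling the treatments shared sequencing lanes, and in a joint fit of 78 libraries with lane as a term the log2 fold change was −3.01 (SE 0.45). The 6 h samples were kept and dissected for longer before freezing than those of later days, in both treatments. Their plants had been uprooted well before 6 h after the injection. Aco014670 fell further here, with 1089 to 1677 CPM in the controls and at most 134.1 CPM after ethephon, with a log2 fold change of −4.11 (SE 0.44).

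In the leaf base on day 4, the control libraries had 22.3, 40.3 and 11.9 CPM (counts of 115, 256 and 62), and the ethephon libraries had 8.83, 3.10 and 4.90 CPM (counts of 28, 9 and 15). The groups did not overlap, with 11.9 CPM in the lowest control against 8.83 CPM in the highest treated library. The log2 fold change was −2.12 (SE 0.42, adjusted p = 0.00717, edgeR), and that of Aco014670 was −1.72 (SE 0.31). The call for Aco014671 was lost without control replicate 2 (−1.59, adjusted p = 0.137, edgeR) and without treated replicate 2 (−1.84, adjusted p = 0.0549, edgeR), and that for Aco014670 without control replicate 2 (−1.18, adjusted p = 0.0768, edgeR).

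In the other 9 comparisons the groups overlapped and no change was called. Genes down-regulated there made up 1.87, 5.34, 2.12, 1.23, 2.59 and 4.73% of those tested for apex 6 h, day 2, day 4, day 5, day 6 and day 8, and 0.874, 0.582 and 3.1% in the leaf base on days 1, 2 and 3. At the apex, the log2 fold changes were −0.34 (SE 0.44) at 6 h, −0.26 (SE 0.64) on day 2, −0.11 (SE 0.62) on day 4, −0.37 (SE 0.42) on day 5, −0.67 (SE 0.54) on day 6 and −0.99 (SE 0.53) on day 8. All 6 were negative, with adjusted p from 0.186 to 0.924 (edgeR), but without 1 library those at 6 h, on day 2 and on day 4 could turn positive (up to 0.30, 0.29 and 0.11). Without 1 library, the values ranged from −0.80 to −0.0445 on day 5, from −1.28 to −0.39 on day 6 and from −1.88 to −0.71 on day 8, and none was called. Leaf base values were 0.42 (SE 0.26) on day 1, 0.24 (SE 0.43) on day 2 and 0.04 (SE 0.39) on day 3, with adjusted p from 0.475 to 0.963 (edgeR). With SEs of 0.26 to 0.64, these values do not show that the level stayed the same. The study, from its own pairwise edgeR tests, reports Aco014671 as lower after ethephon in both tissues on days 1, 3 and 4. Of these, the leaf base on days 1 and 3 and the apex on day 4 are among the comparisons not called here.

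**Figure D3:**
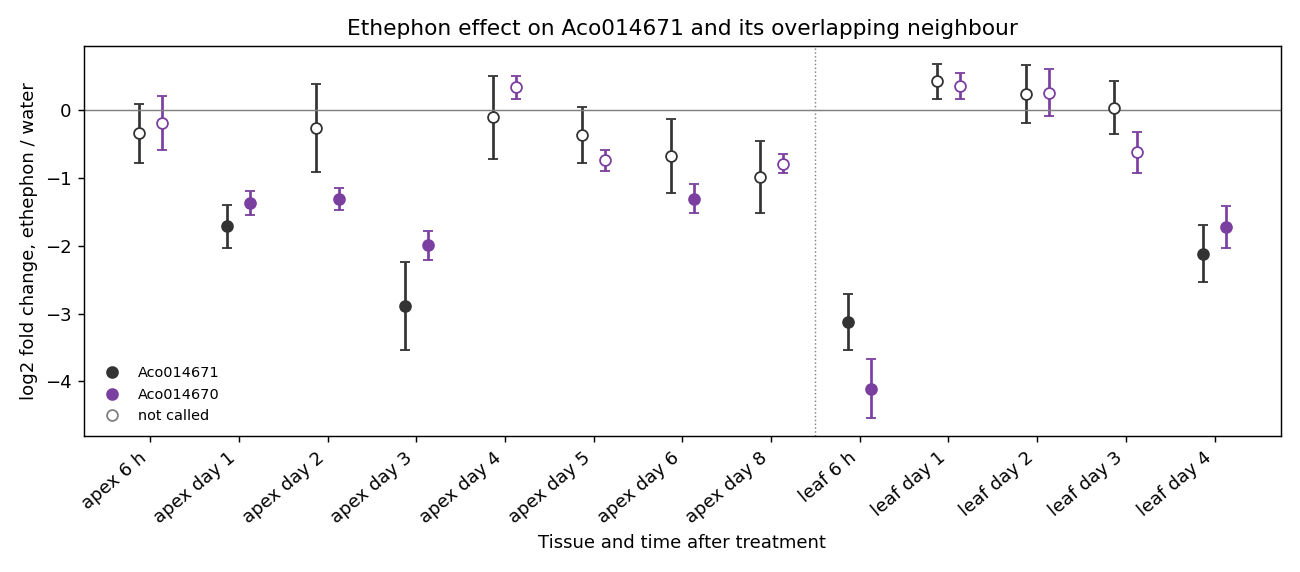
Log2 fold change of ethephon over water (± SE, 6 libraries each) for Aco014671 and Aco014670 in the 13 comparisons, with filled points where the change was called and the dotted line between apex and leaf base. Both genes are called lower at the apex on days 1 and 3 and in leaf bases at 6 h and on day 4, and only Aco014670 on apex days 2 and 6.

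Over all 8 apex samplings, the level was lower after ethephon by 0.90 on the log2 scale (SE 0.21, adjusted p = 0.000544, edgeR, 48 libraries), where 20.1% of genes tested were lower at this threshold without a limit on the fold. Over the 5 leaf base samplings, the log2 fold change was −0.82 (SE 0.37) and was not called (adjusted p = 0.199, edgeR, 30 libraries, 2.24% of genes lower). The effect of ethephon differed between samplings in both tissues, with an adjusted p of 0.0348 at the apex (44.7% of genes tested were called) and of 0.000197 in the leaf base (32.8% called, edgeR). The apex call was lost without any 1 of 6 libraries, with an adjusted p of 0.0534 to 0.107: control replicate 3 and treated replicates 2 and 3 of day 1, and control replicate 1 and treated replicates 1 and 2 of day 3.

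Whether ethephon acted differently in the tissues was tested as an interaction at each shared sampling. Treatments shared no sequencing lane at the apex, so lane and treatment cannot be told apart in the apex part of each difference. At 6 h, the log2 fold change at the apex was higher than that in the leaf base by 2.73 (SE 0.65, adjusted p = 0.00441, edgeR, 16.3% of genes called). On day 1 it was lower at the apex, with a difference of −2.12 (SE 0.44, adjusted p = 0.00192, edgeR, 9.8% of genes called). Day 3 gave the same direction, with a difference of −2.93 (SE 0.82, adjusted p = 0.0151, edgeR, 10% of genes called), and it was not called without control apex replicate 1 (−2.47, adjusted p = 0.0637, edgeR) and was −4.56 without treated apex replicate 3. No difference was called on day 2 (−0.52, SE 0.81, adjusted p = 0.767, edgeR, 10.5% of genes called) or on day 4 (2.04, SE 0.82, adjusted p = 0.112, edgeR, 7.38% of genes called), though day 4 was called without control leaf base replicate 3 (2.36, adjusted p = 0.018, edgeR).

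In the water controls, the apex was below the leaf base in all 5 shared samplings, and the difference was called in 4 of them. The tissues shared no sequencing lane at any sampling of the controls, and after ethephon they did so on day 2 only. Lane and tissue therefore cannot be told apart in the other comparisons of this paragraph. The log2 difference of apex from leaf base was −2.77 (SE 0.36) at 6 h, −2.36 (SE 0.42) on day 2, −1.23 (SE 0.42) on day 3 and −4.57 (SE 0.47) on day 4, with adjusted p from 1.05e-06 to 0.0245 (edgeR). Genes lower in the apex made up 19.3, 12.2, 14.6 and 17.6% of those tested. On day 1, it was −0.88 (SE 0.31, adjusted p = 0.0348, edgeR), which is under 2-fold and was not called (13.4% of genes lower). The day 3 call was lost without control apex replicate 2 (−1.08) or 3 (−1.06) or leaf base replicate 2 (−0.59), and day 1 was called without apex replicate 3 (−1.23) or leaf base replicate 1 (−1.15). After ethephon, the apex was lower from day 1 on, by −2.98 (SE 0.27), −2.88 (SE 0.52), −4.09 (SE 0.55) and −2.51 (SE 0.50) on days 1 to 4, with adjusted p from 3.2e-10 to 0.000276 (edgeR) and with 16.3, 16.1, 17.4 and 14.9% of genes called lower. At 6 h, the treated apex and leaf base were at 5.49 ± 1.85 and 5.47 ± 3.54 CPM, a log2 difference of 0.04 (SE 0.50, adjusted p = 0.965, edgeR, 11.1% of genes lower).

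The level also changed over the samplings within each tissue and treatment. The adjusted p was 1.26e-09 for the control apex, 2.17e-05 for the treated apex, 0.000266 for the control leaf base and 3.44e-05 for the treated leaf base (edgeR, all samplings tested together). Such a change was common, with 54.3, 57.3, 44.6 and 39.9% of genes called in the same order. In the control apex, the means were 6.38 CPM at 6 h and 13.7 CPM on day 1, then 1.59, 3.34, 0.998, 3.38 and 1.70 CPM from day 2 to day 6 and 3.07 CPM on day 8. The treated apex had means of 5.49 CPM at 6 h, 4.11 CPM on day 1 and at most 2.57 CPM later. In the control leaf base, the means were 45.9, 26.1, 8.22, 8.03 and 24.8 CPM, and in the treated leaf base 5.47, 33.9, 9.83, 8.38 and 5.61 CPM. From 6 h to day 1, the only called step was the rise in the treated leaf base, by 2.71 on the log2 scale (SE 0.39, adjusted p = 0.000141, edgeR, 12.4% of genes called). The control leaf base had a log2 change of −0.87 (SE 0.29, adjusted p = 0.0469, edgeR, 11% of genes called), which is under 2-fold. The control apex had 1.01 (SE 0.38, adjusted p = 0.109, edgeR, 5.49% of genes called) and the treated apex −0.37 (SE 0.41, adjusted p = 0.605, edgeR, 7.55% of genes called). The step was called in the control apex without 6 h replicate 1 (1.66), and in the control leaf base without 6 h replicate 1 (−1.07) or day 1 replicate 2 (−1.23).

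The counts of Aco014671 followed those of the antisense gene Aco014670. Aco014670 received 74629 counts in all, and those of Aco014671 were 4.70% of them, with 0 to 9.40% per library (median 4.44%). Per exon base, Aco014670 had 14.4 times as many counts. The share was 4.37% in the control apex, 4.41% in the treated apex, 4.41% in the control leaf base and 5.61% in the treated leaf base, over the summed counts.

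**Figure D4:**
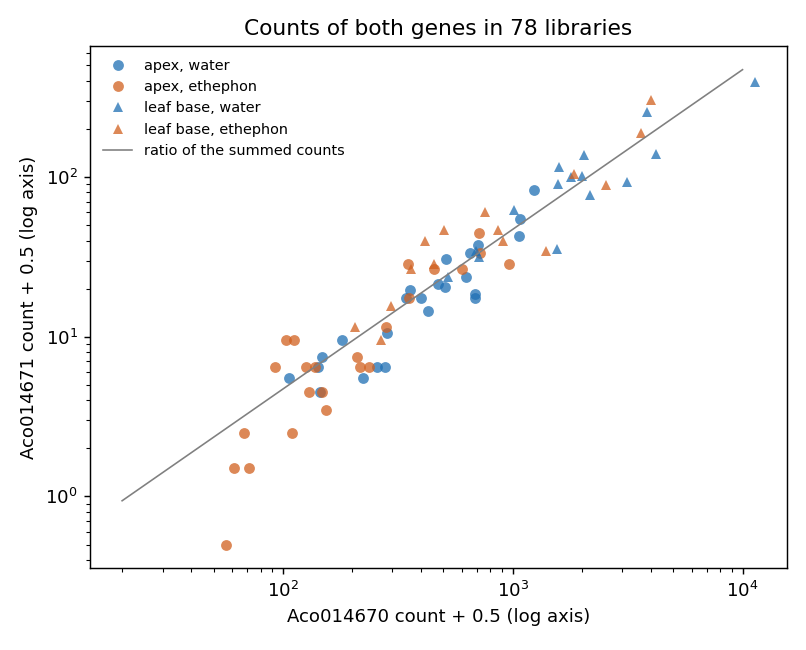
Count of Aco014671 against that of Aco014670 (both with 0.5 added, log axes), with 1 point for each of the 78 libraries and a line at the ratio of their summed counts (4.70%). The libraries of both tissues and treatments lie along the line, with the widest scatter where Aco014671 has few counts.

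Among the 19823 other genes that reached 1 CPM in 3 or more libraries, Aco014670 had the pattern most like that of Aco014671, with a Pearson correlation of 0.961 of the mean log2 CPM over the 26 conditions (Spearman 0.963). Within the tissues, it was 0.946 over 16 apex conditions and 0.933 over 10 leaf base conditions. Aco014670 was also in first place when each library was taken as its deviation from its condition mean, with 0.671 over 78 libraries. These correlations are descriptions. Points share libraries, and both genes share exon bases. The next genes in the order were Aco006888 (0.953), Aco021618 (0.947), Aco009075 (0.943) and Aco006433 (0.942), on linkage groups 22, 14, 9 and 14, and for them the correlation of the library deviations was 0.442, 0.080, 0.084 and 0.463. In all, 57 genes were above 0.9 over the conditions. The patterns most opposed were those of Aco015072 (−0.959), Aco019052 (−0.958), Aco020616 (−0.943), Aco014014 (−0.938) and Aco030190 (−0.937).

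The ratio of both counts was then compared between treatments, a test added after the values were seen. In the leaf base at 6 h, the counts of Aco014671 were 3.33% of those of Aco014670 in the control and 6.48% after ethephon, and on day 3 they were 5.16 and 8.17%. At both samplings the treated libraries were all above the controls (difference of the mean log2 ratios 1.03 and 0.72). An exact permutation test of 3 against 3 libraries gives p = 0.1 at the least, the value reached there and at the apex on day 1 (−0.32), and the adjusted p over the 13 comparisons was 0.433. Over all samplings, with treatments permuted within samplings, the mean difference of the log2 ratio was −0.08 at the apex (permutation test, two-sided, p = 0.686, higher in 3 of 8 samplings) and 0.27 in the leaf base (p = 0.0848, adjusted p over both tissues 0.170, higher in 4 of 5 samplings). A change of the ratio was thus not detected over the samplings of either tissue. For leaf bases, the permutation test gave p = 0.0456 without control replicate 3 of day 2. It gave 0.0441 without treated replicate 1 of day 2, and 0.0295 without treated replicate 2 of day 4.

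**Figure D5:**
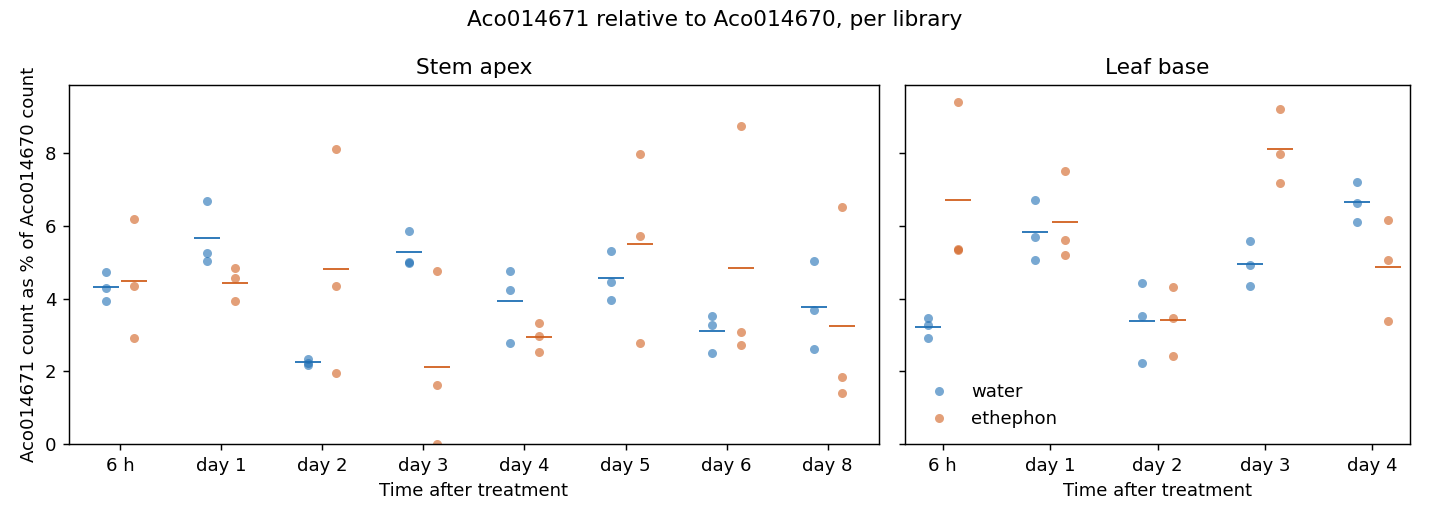
Count of Aco014671 as a percent of that of Aco014670 in each library (points) with the mean of the 3 libraries (bars), by tissue, time and treatment. The treated leaf base lies above the control at 6 h and on day 3, and elsewhere the direction varies.

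Aco014670 was called lower in 6 comparisons, which include the 4 in which Aco014671 was called. The other 2 were the apex on day 2, with −1.31 (SE 0.16) against −0.26 (SE 0.64) for Aco014671, and on day 6, with −1.30 (SE 0.21) against −0.67 (SE 0.54), where Aco014670 was under 2-fold without control replicate 3 (−0.99). The SE of Aco014671 was larger in both, at 6 or fewer counts per control library on day 2. Aco014672 received 138 counts in all, was at 0 in 27 libraries and reached 14 counts at most, so no fold is given for it. It was called lower in the leaf base at 6 h (adjusted p = 0.0397, edgeR), with counts of 1, 1 and 9 in the control and of 1, 0 and 0 after ethephon. At the apex on day 8, it was also called lower (adjusted p = 0.0457, edgeR), with counts of 10, 4 and 14 in the control and 0 in each treated library, and so it was over all apex samplings (adjusted p = 0.0467, edgeR).

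None of 14 other MADS-box genes, a selection from those that the study names, was called lower in the 4 comparisons in which Aco014671 fell. Of all genes tested, 3.63, 7.19, 11 and 2.23% were lower for apex days 1 and 3, leaf base 6 h and leaf base day 4. With shares this low, the absence of falls among 14 genes does not set them apart. At the apex on day 1, 5 of them rose and 0 fell, with a median log2 fold change of 0.72 against −0.01 over all genes tested (7.7% of genes called higher and 3.63% lower). On day 3, 6 rose and 0 fell, with a median of 0.42 against 0.00 (7.2% called higher and 7.19% lower). The genes that rose at both samplings were AcFUL1 (Aco004839), AcFUL2 (Aco012428), of the FRUITFULL type that acts in the floral meristem, AGAMOUS-like 14 (Aco015104), AGAMOUS-like 31 (Aco030656) and CAULIFLOWER A-like (Aco019039). SEP4 (Aco017563) was added on day 3, at a low level, with a mean of 0 CPM in the control and 0.831 ± 0.354 CPM after ethephon. The study describes SEP4 as low and not differentially expressed. AcFUL1, for example, rose by 3.74 on the log2 scale on day 1 (SE 0.53, adjusted p = 4.98e-06, edgeR). In the leaf base at 6 h, 2 of the 3 SVP-type genes of the list, Aco004028 (AcSVP2) and Aco027879, rose, by 1.34 (SE 0.25) and 1.76 (SE 0.58) on the log2 scale. The log2 fold change of the other, Aco002729, was −0.10 (SE 0.15), and 0 of the 14 fell (8.59% of genes called higher and 11% lower). On day 4, none of the 12 tested was called (2.23% of genes called lower and 1.4% higher). The study named these genes from the same samples, so their directions are no independent evidence.

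Of 13 other floral regulators, also a selection from those that the study names, 4 of the 9 tested rose at the apex on day 1 and 0 fell (median log2 fold change 1.70 against −0.01 over all genes tested, of which 7.7% were called higher and 3.63% lower). These were LFY (Aco019058), which sets floral meristem identity in Arabidopsis, SPL8 (Aco008265), CONSTANS-like 3 (Aco006513) and CONSTANS-like 16 (Aco026137). On day 3, 7 of 12 rose, among them LFY by 1.75 (SE 0.23) and SPL8 by 2.99 (SE 0.24) on the log2 scale, and 2 fell (median 1.76 against 0.00 over all genes, 7.2% higher and 7.19% lower). The 2 that fell with Aco014671 on that day were a CONSTANS-like gene, Aco003091, by 1.38 (SE 0.15), and the GIGANTEA-like gene Aco014347, by 1.63 (SE 0.18). GIGANTEA acts in the circadian clock and in photoperiodic flowering of Arabidopsis. Of the 10 tested in the leaf base, 0 were called at 6 h (median −0.11 against 0.02 over all genes, 8.59% higher and 11% lower), and on day 4 CONSTANS-like 3 and CONSTANS-like 16 rose, by 2.08 (SE 0.30) and 2.48 (SE 0.47), and 0 of 10 fell (median −0.14 against −0.02 over all genes, 1.4% higher and 2.23% lower). As with the MADS-box genes, the study named these regulators from the same samples, so their directions and medians are no independent evidence.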

How the data were processed

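RNA was sequenced from the stem apex and leaf base of pineapple plants after ethephon or water (78 libraries), and group, sampling and replicate were taken from the labels. According to the submitters' processing notes, reads were checked with FastQC 0.10.1, trimmed with Trimmomatic 0.36, aligned with HISAT2 2.0.5 and counted with featureCounts 1.6.0, and per the file headers read pairs were counted on exons without strand and with multi-mapping reads included. The values deposited by the authors are raw counts per gene, one table per library, 27024 genes, of which 2554 had no count.

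From these counts, the libraries of each comparison were fitted on their own in R 4.3.3 by the quasi-likelihood test of edgeR 4.0.16, with TMM factors, every gene that had a count and Benjamini-Hochberg adjustment over those genes. A gene was called at an adjusted p under 0.05 and, for pairwise contrasts and the tissue interaction, a log2 change of at least 1. SEs are those of the fit, back-calculated from its F. CPM used TMM factors over the 19824 genes that reached 1 CPM in 3 or more libraries, and log2 CPM a prior count of 0.25. The tests were tested on simulated counts with 200 changed genes. These had higher mean counts than the 10 or fewer of Aco014671 in 25 of the 48 apex libraries, a setting that the simulation does not cover.

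Named genes were Aco014671, its overlapping genes, a selection of the MADS-box genes and floral regulators that the study names, and the 5 genes most and the 5 least correlated with Aco014671. The gene and the lists were chosen with earlier results of these data known. The alternatives were RLE normalization, DESeq2 1.42.0, edgeR's exact test, a filter of 1 CPM in 3 libraries, other call limits, the replicate number as a block, 1 fit of all 78 libraries with and without lane, the 3 overlapping genes summed and each library left out. Each field replication held both treatments, and apex and leaf base were taken from the same plants, but the labels do not say that the replicate numbers are those of the field. Samples with the same number did not deviate together (of 81 pairs, 1 had a correlation above 0.1), so the main fits have no block. No 2 replicates agreed within sampling noise (chi-square per gene of at least 1.60 in 78 pairs). The limit for a count of 0 covers counting error only.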

Additional observations from a re-analysis of the deposited data

Results flagged for a closer look

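The effect of ethephon on Aco014671 differed between the tissues at 3 of the 5 shared samplings, each by a test of the difference itself. The log2 fold change at the apex minus that in the leaf base was 2.73 at 6 h, −2.12 on day 1 and −2.93 on day 3, with adjusted p of 0.00441, 0.00192 and 0.0151 (edgeR interaction test). The direction of the difference at 6 h was the opposite of that on days 1 and 3. In the apex part of each difference, lane and treatment cannot be told apart, as the treatments shared no lane there. Treatment effects also differed between samplings within a tissue, with an adjusted p of 0.0348 for the apex and of 0.000197 for the leaf base (edgeR). Such calls were common, with 44.7% of genes for the apex and 32.8% for the leaf base. For the tissue difference, 16.3, 9.8 and 10% of genes were called at 6 h, day 1 and day 3. Without certain single libraries, the apex call (adjusted p up to 0.107, edgeR) and the day 3 tissue difference (0.0637, edgeR) were lost. For Aco014670, the differences between the tissues were 3.90, −1.71 and −1.39 at 6 h, day 1 and day 3. Groups of 3 libraries were too small for a search for single outlying libraries.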

How the results depend on the processing

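For Aco014671, RLE normalization, DESeq2, the filter of 1 CPM in 3 libraries, the replicate block and, for the 13 treatment comparisons, edgeR's exact test, an unadjusted p and no limit on the fold change left every direction and every call as it was. With the replicate block, the 4 called log2 fold changes were −1.67, −2.90, −3.21 and −2.01. The block changed no call of Aco014671, in the treatment comparisons or between the tissues. The joint fit of 78 libraries kept all 13, and with lane as a term 4 of the 13 could be fitted (apex day 6, leaf base 6 h, day 1 and day 2), with −1.77 (SE 1.23) for apex day 6. With a log2 fold change above 2 as the limit, the apex on day 1 (−1.71) is not called for Aco014671, nor are the apex on days 1 (−1.37), 2 (−1.31), 3 (−1.99) and 6 (−1.30) and the leaf base on day 4 (−1.72) for Aco014670. Without a limit, Aco014670 is called on apex days 5 (−0.74) and 8 (−0.79), and with lane its apex day 6 value was −2.19 (adjusted p = 0.0738, edgeR) and not called.

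With the 3 overlapping genes summed, mostly counts of Aco014670, the apex was called on days 2 (−1.26) and 6 (−1.29), the tissue difference on days 2 (−1.51) and 4 (2.08), and the step from 6 h to day 1 in the control leaf base (−1.67), and values turned sign without a call on apex day 4 (0.31) and leaf base day 3 (−0.58).

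Leaving out 1 library gave these ranges where a call or a sign changed. Treatment comparisons of Aco014671 ranged from −0.65 to 0.30 for apex 6 h, −0.86 to 0.29 for apex day 2, −0.36 to 0.11 for apex day 4, −0.40 to 0.63 for leaf base day 2, −0.29 to 0.71 for leaf base day 3 and −2.61 to −1.59 for leaf base day 4. The tissue difference in the effect ranged from −1.10 to 0.12 on day 2, −4.56 to −2.47 on day 3 and 1.497 to 2.52 on day 4. Apex against leaf base ranged from −1.23 to −0.48 for water day 1, −1.66 to −0.59 for water day 3 and −0.45 to 0.37 for ethephon 6 h. Day 1 against 6 h ranged from 0.68 to 1.66 for the control apex and −1.23 to −0.60 for the control leaf base. The adjusted p of the difference between apex samplings ranged from 0.00949 to 0.107. For Aco014670, the ranges were −0.84 to 0.53 for apex 6 h, −0.012 to 0.53 for apex day 4, −1.54 to −0.99 for apex day 6, −0.32 to 0.55 for leaf base day 2 and −2.03 to −1.18 for leaf base day 4. The log2 ratio of both counts ranged from −0.15 to 0.0069 for the apex and from 0.22 to 0.32 for the leaf base, and with a pseudocount of 1 the apex value was 0.024. The causes of these changes were not tested. Low counts limit these values, with 10 or fewer counts of Aco014671 in 25 of the 48 apex and 1 of the 30 leaf base libraries, and with a prior count of 2 the mean log2 CPM moved by more than 1 SD in 2 of the 26 conditions.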
